A study of Mus musculus with 16 samples.

Results

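Dnmt1, Uhrf1, Dnmt3a, Dnmt3b, Dnmt3l, Tet1, Tet2 and Tet3, the genes of the enzymes and cofactors that write, copy and oxidise DNA methylation, are described here across mouse embryonic stem cell (ESC) lines that differ in the chromatin protein MBD3. They were chosen by name, with earlier results of these data known. They are 8 of the 30102 genes measured, and all 8 passed the filter on low signal. Each had 1 probe set with a single gene symbol. Expression was measured as total RNA on 16 Affymetrix arrays, 1 per line and condition, and is given as a log2 signal in which a difference of 1 is a doubling. EBRTcH3, a male ESC line of strain 129SV, is the wild type. The other lines descend from it, lack all endogenous MBD3 forms (Mbd3abc-KO) and carry a stably introduced vector. The vectors encode MBD3a, MBD3b or MBD3c, MBD3a without the domain named for methyl-CpG binding (MBD-deleted), MBD3a without the coiled coil (coiled-coil-deleted), MBD3a without either (doubly deleted), or no insert (empty vector). Cells were grown in conventional ESC medium with the cytokine LIF, or kept without LIF for 12 days to induce differentiation. The 5 lines labelled with wild-type MBD3 or with a construct whose coiled coil is not marked as deleted (EBRTcH3, MBD3a, MBD3b, MBD3c, MBD-deleted) are called retaining lines. The 3 others (empty vector, coiled-coil-deleted, doubly deleted) are called lacking lines. The labels do not say whether a line is a single clone, and name no repeat culture, so lines served as the replicates and each p-value rests on how much these lines vary. In bulk RNA, fewer cells of a type and less RNA per cell cannot be told apart.

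In mammals a methyl group on cytosine, mostly in CpG, is placed by the de novo methyltransferases DNMT3A and DNMT3B, which the catalytically inactive DNMT3L stimulates. After replication the mark is copied onto the new strand by DNMT1, which UHRF1 recruits to hemimethylated sites. TET1, TET2 and TET3 oxidise 5-methylcytosine and start its removal. Mouse ESCs express Tet1, Tet2 and Dnmt3l strongly. The passage to the epiblast that readies cells for lineage commitment is known for a rise of Dnmt3a and Dnmt3b. MBD3 belongs to NuRD, a complex that remodels nucleosomes and deacetylates histones, and LIF sustains ESC self-renewal through the transcription factor STAT3.

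Promoter sequence from RefSeq (GRCm38.p6) is shown for Dnmt3b, the member with the largest difference between the classes of line without LIF, and for the short stretches that hold a searched motif in Dnmt1, Uhrf1 and Dnmt3l. The 8 members matched 15 windows of 250 bases before an annotated start. Searched on both strands were an E2F site (TTTCGCGC or TTTGGCGC, present in 0.7% of 32851 windows of that length), a STAT site (TTCNNNGAA, 7.0%), the octamer (ATGCAAAT, 1.6%), a KLF site (GGGTGTGG, 3.2%) and an SP site (GGGCGG, 32.7%). The Dnmt3b stretch, chr2:153649199-153649410 on the plus strand, ends at the base before the gene and has the SP matches in capitals.
Dnmt3b: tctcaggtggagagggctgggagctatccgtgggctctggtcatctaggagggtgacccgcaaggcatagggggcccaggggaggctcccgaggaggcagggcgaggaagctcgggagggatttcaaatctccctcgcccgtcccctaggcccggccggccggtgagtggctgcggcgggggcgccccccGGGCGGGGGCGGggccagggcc
The other lines have the E2F or STAT match in capitals: Dnmt1 lies at chr9:20952824-20952853 (minus strand, upstream of the third annotated start), Uhrf1 at chr17:56304117-56304146 (plus strand) and Dnmt3l at chr10:78049705-78049734 (plus strand).
Dnmt1: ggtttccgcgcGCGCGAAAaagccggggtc
Uhrf1: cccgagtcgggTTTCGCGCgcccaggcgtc
Dnmt3l: cccccaccctTTCCCCGAAgccctctccca
The E2F letters thus occurred in a window of Dnmt1 and of Uhrf1, the maintenance pair, and in no window of the other 6 members. The STAT letters occurred only in the second Dnmt3l window among the 15, the octamer and KLF letters in none, and the SP letters in at least 1 window of each member. The Tet2 window held 51 CpG, more than 99.9% of windows, against a median of 6 over all windows. A match is a description of letters in these windows and was not tested as a site.

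Array medians were 4.72 to 4.85 and pairwise correlations 0.971 to 0.995, and precision is limited by how few arrays there are. The knocked-out gene, Mbd3, was lowest in the empty vector line, at 7.00 with LIF and 7.45 without, where EBRTcH3 had 9.10 and 9.17. It read 8.45 to 9.59 in the 6 lines with a construct, coiled-coil-deleted included; the sources used here do not say which exons its probe set covers. All 10 ESC markers passed the filter, and their summed signal was 14.99 to 15.19 in retaining and 15.05 to 15.22 in lacking lines with LIF. The sample titles carry numbers 1 to 10 (EBRTcH3, MBD3a, MBD3b, MBD3c and empty vector) and 15 to 20 (the deletion constructs). What these numbers stand for is not stated, and values within each of these title runs are given beside the results. MBD-deleted is the only retaining line of the second run and differed from the other retaining lines in several members, so results are also given without it where that changed a call. Since the values of the same genes singled it out, those results are no independent support.

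**Figure D1:**
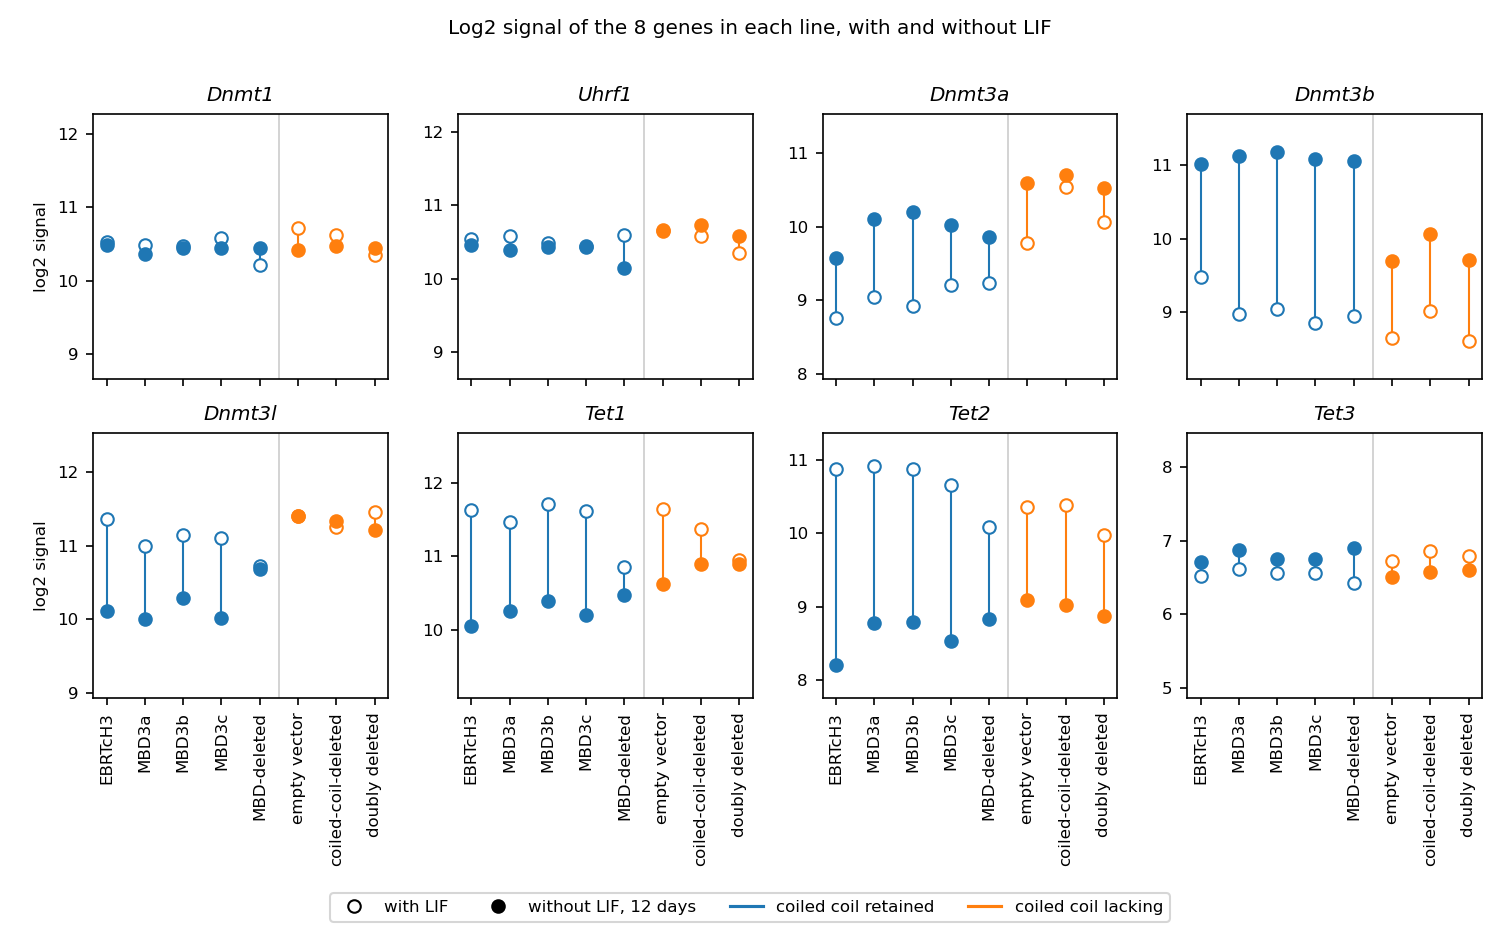
Log2 signal (vertical axis) of each of the 8 genes in each line (horizontal axis), with LIF as open and without LIF as filled circles, joined per line. Panels span the same number of log2 units but start at different levels. Dnmt3b without LIF lies between 11.01 and 11.18 in the 5 retaining lines and between 9.69 and 10.06 in the 3 lacking lines, while Dnmt1 stays between 10.22 and 10.72 on all 16 arrays.

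Without LIF, the de novo methyltransferase genes Dnmt3a and Dnmt3b rose, and Dnmt3l, Tet1 and Tet2 fell. Over all 8 lines 5 of the 8 members passed the limma test (adjusted p under 0.05 over the 22872 genes tested), beside 25% of genes. Of these, 2 were higher (15.1% of genes) and 3 lower (9.89%). In the retaining lines 6 members passed, Tet3 being added, beside 35.8% of genes; 3 were higher (21.3% of genes) and 3 lower (14.5%). In the lacking lines 2 passed, Dnmt3b higher (1.71% of genes) and Tet2 lower (1.22%), beside 2.93% of genes in either direction. Dnmt1, Uhrf1 and, over all lines, Tet3 did not pass.

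Dnmt3b encodes the de novo enzyme of the early embryo and lies at chr2:153649411-153687730. Values of each gene are given in a fixed order, for the retaining lines EBRTcH3, MBD3a, MBD3b, MBD3c, MBD-deleted and then for the lacking lines with empty vector, with the coiled-coil deletion and with both deletions. The Dnmt3b log2 signal with LIF was 9.48, 8.97, 9.04, 8.85 and 8.95, against 8.65, 9.01 and 8.61. Without LIF it was 11.01, 11.12, 11.18, 11.08 and 11.05, against 9.69, 10.06 and 9.71. The retaining lines thus came to nearly the same level after 12 days, above every lacking line, although the classes overlapped with LIF. Dnmt3b rose by 2.03 ± 0.10 log2 in the retaining lines (limma SE, n = 5 lines, 4.08-fold, adjusted p = 1.57e-07) and by 1.06 ± 0.13 in the lacking lines (n = 3 lines, 2.09-fold, adjusted p = 0.00218). The smallest rise of a retaining line, 1.53 in EBRTcH3, exceeded the largest of a lacking line, 1.10 in doubly deleted. By class and condition the means ran from 8.76 ± 0.22 (SD, lacking lines with LIF) and 9.06 ± 0.25 (retaining with LIF), which overlapped, to 9.82 ± 0.21 (lacking without LIF) and 11.09 ± 0.07 (retaining without LIF), each apart from the group below it.

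Dnmt3a, at chr12:3801559-3914443, encodes the de novo enzyme that is more widely expressed in later development. With LIF it read 8.76, 9.04, 8.92, 9.21 and 9.23 in the retaining lines and 9.78, 10.54 and 10.07 in the lacking lines. After LIF withdrawal the values were 9.58, 10.11, 10.20, 10.02 and 9.86 in the retaining and 10.60, 10.71 and 10.53 in the lacking lines. Here the lacking lines were the high ones in both conditions, with no overlap, the opposite order to Dnmt3b without LIF. Dnmt3a rose by 0.92 ± 0.11 in the retaining lines (1.89-fold, adjusted p = 8.89e-05, higher in 5 of 5 lines). Among the lacking lines the difference was 0.48 ± 0.15, also positive in 3 of 3 lines but not past the threshold (adjusted p = 0.12). The group means were 9.03 ± 0.20 (retaining with LIF), 9.95 ± 0.24 (retaining without), 10.13 ± 0.38 (lacking with) and 10.61 ± 0.09 (lacking without), of which only the lowest stood apart from its neighbour.

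Dnmt3l, at chr10:78042287-78063622, encodes the cofactor without enzyme activity. It read 11.37, 10.99, 11.15, 11.11 and 10.73 with LIF and 10.11, 10.01, 10.29, 10.02 and 10.68 without in the retaining lines. In the lacking lines it read 11.41, 11.26 and 11.46 with LIF and 11.41, 11.34 and 11.21 without. Its signal was thus about as high without LIF as with it in every lacking line and in MBD-deleted, and lower in the 4 other retaining lines. Dnmt3l fell by 0.85 ± 0.15 in the retaining lines (1.80-fold, adjusted p = 0.000914), with a response of -0.86 to -1.26 in 4 lines and of -0.05 in MBD-deleted. Its difference in the lacking lines was -0.06 (95% interval -0.47 to 0.36, adjusted p = 0.936). Over all 8 lines it fell by 0.55 ± 0.17 (adjusted p = 0.0327), a call lost on leaving out EBRTcH3 (-0.45, adjusted p = 0.0819), MBD3a (-0.49, 0.0831), MBD3b (-0.51, 0.0818) or MBD3c (-0.47, 0.0862). Retaining lines without LIF (10.22 ± 0.28) stood below the 3 other groups, whose means of 11.07 to 11.38 overlapped in order.

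Tet1, at chr10:62804570-62887469, and Tet2, at chr3:133463677-133545136, encode the dioxygenases that dominate in ESCs. Tet1 read 11.63, 11.47, 11.71, 11.62 and 10.86 in the retaining lines with LIF and 10.05, 10.26, 10.39, 10.20 and 10.48 without; in the lacking lines it read 11.64, 11.37 and 10.95 with LIF and 10.62, 10.90 and 10.90 without. Tet2 read 10.87, 10.92, 10.88, 10.65 and 10.09 in the retaining lines with LIF and 8.21, 8.78, 8.79, 8.54 and 8.83 without; in the lacking lines it read 10.36, 10.38 and 9.97 with LIF and 9.09, 9.03 and 8.87 without. Every line was lower without LIF for both genes, and the retaining lines ended below the lacking lines. Tet1 fell by 1.18 ± 0.17 in the retaining lines (2.27-fold, adjusted p = 0.000264), from -0.38 in MBD-deleted to -1.58 in EBRTcH3; in the lacking lines the difference was -0.51 ± 0.22 (adjusted p = 0.286). Tet2 fell by 2.05 ± 0.15 in the retaining lines (4.15-fold, adjusted p = 2.55e-06) and by 1.24 ± 0.20 in the lacking lines (2.36-fold, adjusted p = 0.00876). The Tet2 call in the lacking lines was lost without the empty vector line (-1.23, adjusted p = 0.0787) or coiled-coil-deleted (-1.18, 0.0574). Over all 8 lines only 0.459% of genes changed by more than Tet2 and 0.568% by more than Dnmt3b. For both Tet genes the group means rose from retaining lines without LIF to lacking lines without LIF and then to lacking lines with LIF, each apart from the last (Tet1 10.28, 10.81 and 11.32; Tet2 8.63, 9.00 and 10.24). The retaining lines with LIF (11.46 ± 0.35 and 10.68 ± 0.35) were highest and overlapped the lacking lines with LIF.

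Tet3, at chr6:83362373-83457208, encodes the dioxygenase known from the zygote and from neural cells, and its signal lay between the 73.6th and 77.6th percentile of each array. It read 6.52, 6.62, 6.56, 6.56 and 6.43 with LIF and 6.71, 6.88, 6.75, 6.76 and 6.91 without in the retaining lines, and 6.73, 6.87 and 6.79 with LIF and 6.51, 6.58 and 6.61 without in the lacking lines. Each retaining line was higher and each lacking line lower without LIF, by at most 0.48 log2. Tet3 rose by 0.26 ± 0.07 in the retaining lines (1.20-fold, adjusted p = 0.0162), and the difference in the lacking lines was -0.23 ± 0.10 (adjusted p = 0.271). Centring each array on its median moved the typical gene's response in the retaining lines by 0.102, and the Tet3 call was then lost (0.16, adjusted p = 0.146), as it was under quantile normalization (0.13, 0.213).

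The maintenance genes Dnmt1 and Uhrf1 did not pass in either class. Dnmt1, at chr9:20907206-20959888, copies methylation at replication; it read 10.22 to 10.58 with LIF and 10.37 to 10.49 without in the retaining lines, and 10.35 to 10.72 and 10.42 to 10.47 in the lacking lines. Its response was -0.02 (95% interval -0.21 to 0.16, adjusted p = 0.858) in the retaining and -0.12 (-0.36 to 0.12, adjusted p = 0.694) in the lacking lines. The intervals leave room for changes of up to 0.36 log2. Uhrf1, at chr17:56303337-56323486, which brings DNMT1 to the replication fork, read 10.43 to 10.60 with LIF and 10.15 to 10.46 without in the retaining lines. It read, in the lacking lines, 10.35 to 10.65 and 10.59 to 10.74. The Uhrf1 response was -0.15 ± 0.09 (adjusted p = 0.189) in the retaining and 0.14 ± 0.11 (adjusted p = 0.639) in the lacking lines, and the 4 groups of each gene overlapped their neighbours in order of mean. Centring each array on its median brought Uhrf1 past the threshold in the retaining lines (-0.26, adjusted p = 0.0308).

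The changes over all 8 lines kept their sign within each title run. Dnmt3b differed by 1.82 in the first run and 1.42 in the second, Dnmt3a by 0.96 and 0.42, Tet2 by -2.05 and -1.24, Tet1 by -1.31 and -0.30, and Dnmt3l by -0.84 and -0.07. All 5 were thus nearer to 0 in the second run, which holds 2 of the 3 lacking lines and MBD-deleted. In the retaining lines the response in the 4 lines of the first run against that of MBD-deleted was 2.01 and 2.10 for Dnmt3b, 1.00 and 0.63 for Dnmt3a, -1.05 and -0.05 for Dnmt3l, -1.38 and -0.38 for Tet1, -2.25 and -1.26 for Tet2, and 0.21 and 0.48 for Tet3. In the lacking lines the empty vector line's response against that of the 2 deletion constructs was 1.04 and 1.08 for Dnmt3b and -1.27 and -1.22 for Tet2. With title run in the model Dnmt3a (0.61, adjusted p = 0.0229) and Tet1 (-0.77, 0.00805) also passed in the lacking lines.

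**Figure D2:**
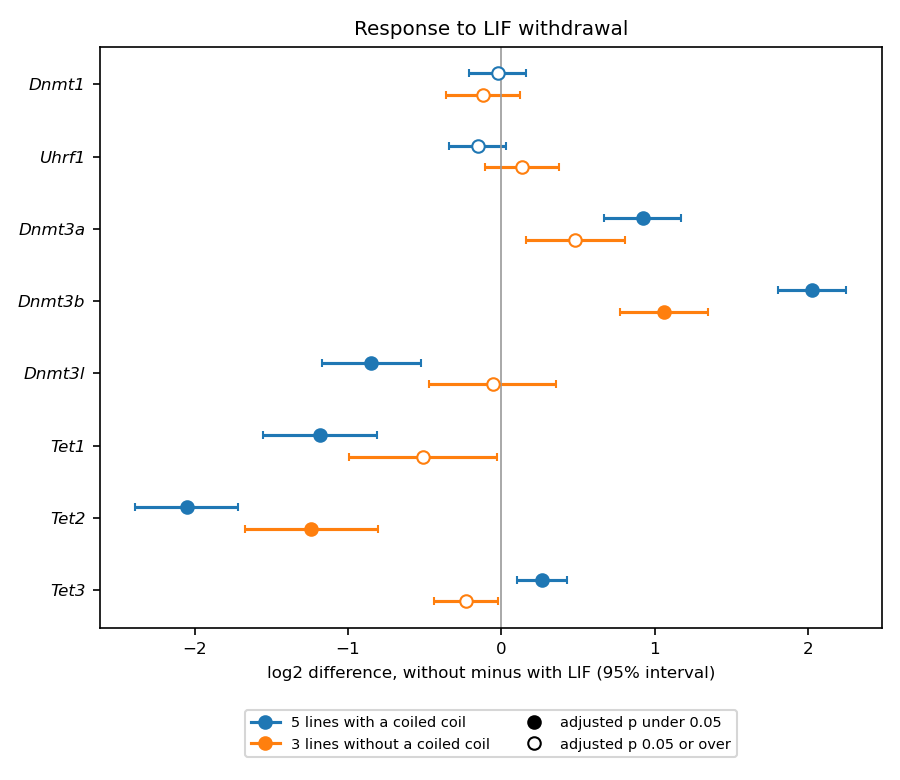
Response to LIF withdrawal (horizontal axis, log2 difference without minus with LIF) of each gene (vertical axis) in the 5 retaining and the 3 lacking lines; bars are 95% intervals of the limma fit and filled points have an adjusted p under 0.05. Dnmt3b and Tet2 lie farthest from 0, at 2.03 and -2.05 in the retaining lines and 1.06 and -1.24 in the lacking lines.

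Responses to LIF withdrawal were smaller in the lacking lines for Dnmt3b, and of opposite sign for Tet3. In the test of the difference itself, lacking minus retaining, 2 of the 8 members passed, both lower, beside 12.1% of genes (7.9% lower and 4.17% higher). Dnmt3b differed by -0.97 ± 0.16 (n = 5 and 3 lines, adjusted p = 0.00388) and Tet3 by -0.49 ± 0.12 (adjusted p = 0.0232). Within the title runs the Dnmt3b difference was -0.97 in the first and -1.03 in the second, with only 1 lacking line in the former and 1 retaining line in the latter. With title run in the model it also passed (adjusted p = 0.0118). For Tet3 the within-run differences were -0.43 and -0.72. Its call was lost without MBD3a (-0.49, adjusted p = 0.0525), coiled-coil-deleted (-0.46, 0.103) or doubly deleted (-0.52, 0.061). It was also lost with each array centred on its median (-0.40, adjusted p = 0.0832) and under quantile normalization (-0.37, 0.0863).

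The mean responses of Dnmt3l, Tet2, Tet1 and Dnmt3a were also nearer to 0 in the lacking lines, but these did not pass. The signed differences of responses were 0.79 (adjusted p = 0.0542), 0.81 (0.0574), 0.67 (0.149) and -0.44 (0.155) in that order. With no replicate block Dnmt3l (adjusted p = 0.0191) and Tet2 (0.0433) passed. The responses of MBD-deleted, -0.05 for Dnmt3l, -0.38 for Tet1 and -1.26 for Tet2, lay within the range of the lacking lines. Without MBD-deleted the difference of responses passed for Dnmt3l (0.99, adjusted p = 0.00126), Tet1 (0.87, 0.017) and Tet2 (1.01, 0.00235), while Dnmt3b and Tet3 still passed. That line is singled out by its values in these same genes, so larger differences follow from the choice and are no support. Over all genes 3914 of 22872 passed without it, against 2759 with it. Within the second title run, where MBD-deleted is the retaining line, the differences were -0.03 for Dnmt3l, 0.12 for Tet1 and 0.03 for Tet2, against 1.05, 0.36 and 0.98 in the first run. Uhrf1 (0.29, adjusted p = 0.209) and Dnmt1 (-0.10, 0.726) did not pass.

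With LIF present, the lacking lines differed from the retaining lines in Dnmt3a alone among the 8 members, beside 14.1% of genes that passed (7.65% higher and 6.48% lower). Dnmt3a was 1.10 ± 0.17 log2 higher in the lacking lines (2.14-fold, n = 3 and 5 lines, adjusted p = 0.00176), and only 1.63% of genes differed by more. Within the first title run the difference was 0.80 and within the second 1.07, each with 1 line on a side. With title run in the model it was 0.92 (adjusted p = 0.00625). Tet2 was 0.45 lower in the lacking lines (-0.45, adjusted p = 0.147) and passed without MBD-deleted (-0.59, adjusted p = 0.0112), while its sign turned within the second title run (0.08). MBD-deleted was the lowest retaining line for Tet2, and without it 3866 of 22872 genes passed, against 3233 with it. Tet3 lay higher in each lacking line than in any retaining line (0.26, adjusted p = 0.0893, and 0.0247 with line as a random replicate block) and Dnmt3l was 0.31 higher (adjusted p = 0.169), with overlap. Dnmt3b (-0.30, 95% interval -0.64 to 0.03), Tet1 (-0.14), Dnmt1 (0.10) and Uhrf1 (-0.01) did not pass either.

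Without LIF 5 members passed, beside 20.9% of genes. Dnmt3b was lower in the lacking lines, as were 12.4% of genes, and Dnmt3l, Dnmt3a, Tet1 and Uhrf1 were higher, as were 8.55%. Dnmt3b was 1.27 ± 0.10 log2 lower (-1.27, 2.41-fold, adjusted p = 2.62e-05) and Dnmt3l was 1.10 ± 0.15 higher (2.14-fold, adjusted p = 0.00069). Dnmt3a was 0.66 ± 0.13 higher (adjusted p = 0.00629) and Tet1 0.53 ± 0.11 (adjusted p = 0.00837). For Uhrf1 the difference was 0.29 ± 0.09 (1.22-fold, adjusted p = 0.0492), and the retaining MBD-deleted line was the lowest at 10.15. The classes did not overlap for these 5 genes, nor for Tet2 and Tet3, which did not pass. The share of all genes without overlap is not given here. The Uhrf1 call was lost without the empty vector line (0.29, adjusted p = 0.122), coiled-coil-deleted (0.25, 0.173) or doubly deleted (0.32, 0.0867), and also without MBD3a (0.29, 0.0825), MBD3b (0.30, 0.0741) or MBD3c (0.30, 0.0621), as well as with no filter on low values (adjusted p = 0.0686) and under quantile normalization (0.26, 0.079). Tet3 was 0.24 lower (-0.24, adjusted p = 0.0543, and 0.0401 with line as a random replicate block) without overlap, and passed without EBRTcH3 (-0.26, adjusted p = 0.0454). Tet2 (0.37, adjusted p = 0.1) and Dnmt1 (0.01, 95% interval -0.14 to 0.15) did not pass.

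Within the first title run, where the empty vector line stands against 4 retaining lines, Dnmt3b differed by -1.41 and Dnmt3l by 1.30 without LIF. Dnmt3a differed by 0.62, Tet1 by 0.39 and Uhrf1 by 0.23. Within the second, where 2 lacking lines stand against MBD-deleted, the differences were -1.17, 0.59, 0.76, 0.42 and 0.51 in that order. Each of these fits has a single array in a class, so no call is read from it. All 5 thus kept their sign in both runs. Exact two-sided permutation of the class labels over the 8 lines gave the smallest p it can reach, 0.0179, for Dnmt3a with LIF and for Dnmt3b, Dnmt3l, Dnmt3a, Tet1 and Uhrf1 without, and also for Tet3 in both conditions, which limma did not call.

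**Figure D3:**
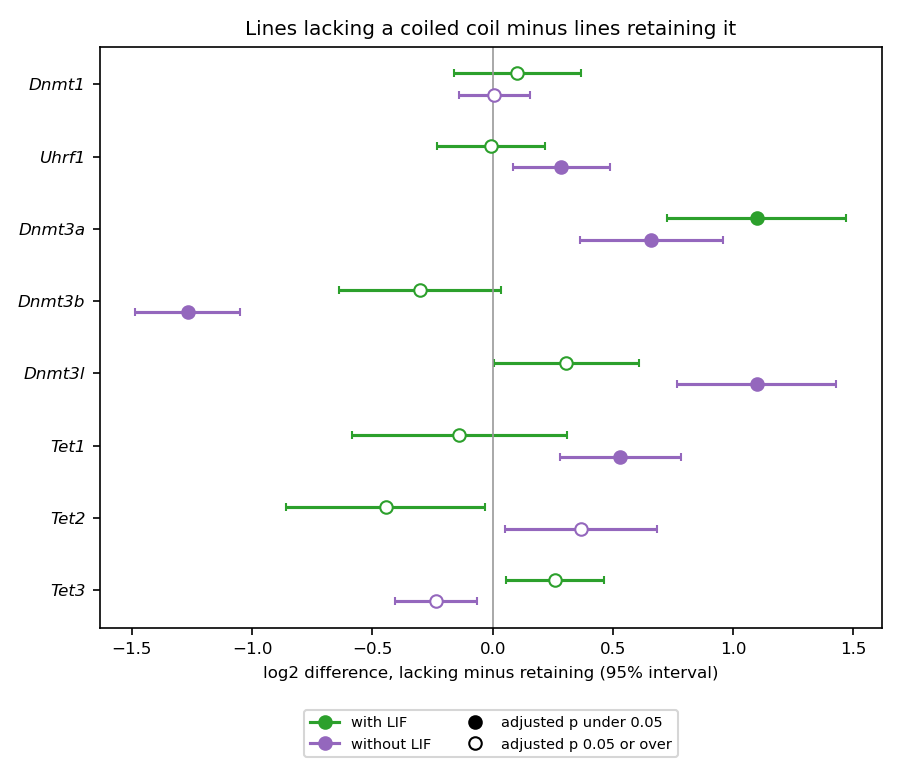
Difference between the classes of line (horizontal axis, log2, lacking minus retaining) for each gene (vertical axis) with and without LIF; bars are 95% intervals of the limma fit and filled points have an adjusted p under 0.05. With LIF the filled point is Dnmt3a at 1.10; without LIF Dnmt3b lies at -1.27 and Dnmt3l at 1.10.

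Without LIF the de novo pair thus differed between the classes in opposite directions. The within-array difference of log2 signals, Dnmt3a minus Dnmt3b, was -0.72 to 0.36 in the retaining and 1.13 to 1.53 in the lacking lines with LIF, and -1.43 to -0.98 and 0.65 to 0.91 without. Levels of different probe sets cannot be compared, so only the shift between classes is read from it. That shift was 1.40 with LIF and 1.93 without, which restates the differences of both genes. Exact permutation of the class labels gave p = 0.0179 in each condition, the smallest it can reach. After Benjamini-Hochberg adjustment over the 6 pair tests it was 0.0537, which did not pass. The pairs were formed after the data were seen, so this is no independent result. For Tet1 minus Tet2 the shift was 0.31 with LIF and 0.16 without.

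Among the 4 MBD3a constructs, those without the coiled coil had higher Dnmt3a with LIF, and lower Dnmt3b and higher Dnmt3l and Tet1 without LIF. The fit adds the effects of the MBD and coiled-coil deletions, each measured in 2 pairs of lines per condition, and uses 4 lines already counted in the class comparison, so it is no independent result. With LIF 1 member passed, beside 10.3% of genes (5.36% higher and 4.9% lower): Dnmt3a, at 1.17 ± 0.17 (2.25-fold, adjusted p = 0.0101). Without LIF 3 passed, beside 9.08% (2.95% higher and 6.13% lower): Dnmt3b at -1.20 ± 0.15 (2.30-fold, adjusted p = 0.00485), Dnmt3l at 0.93 ± 0.21 (adjusted p = 0.0383) and Tet1 at 0.53 ± 0.13 (adjusted p = 0.0482). The last 2 calls were lost with no filter on low values (adjusted p = 0.0582 and 0.0769), and that of Tet1 also with array weights (0.0544). Dnmt3a without LIF differed by 0.64 ± 0.17 and did not pass (adjusted p = 0.0654). MBD3a lies in the first title run and the deletion constructs in the second, so for MBD3a against a construct the run and the construct cannot be told apart.

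Deletion of the MBD changed none of the members past the threshold in limma, beside 0% of genes in either condition. At an unadjusted p under 0.05 there were 2 members with LIF and 0 without, beside 3335 and 1644 of the 22872 genes tested. With a mean-variance trend limma called 269 genes with LIF and 0 without, and again 0 members. The 2 members were Tet2 (-0.62 ± 0.15, 95% interval -0.96 to -0.28, adjusted p = 0.123) and Tet1 (-0.52 ± 0.13, adjusted p = 0.139). Tet2 with LIF read 10.92 in MBD3a and 10.38 in coiled-coil-deleted, and was lower in their counterparts without the MBD, at 10.09 and 9.97. Without LIF both were within 0.11 log2 of no difference, and the largest member difference was 0.27 for Dnmt3l (95% interval -0.22 to 0.76).

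**Figure D4:**
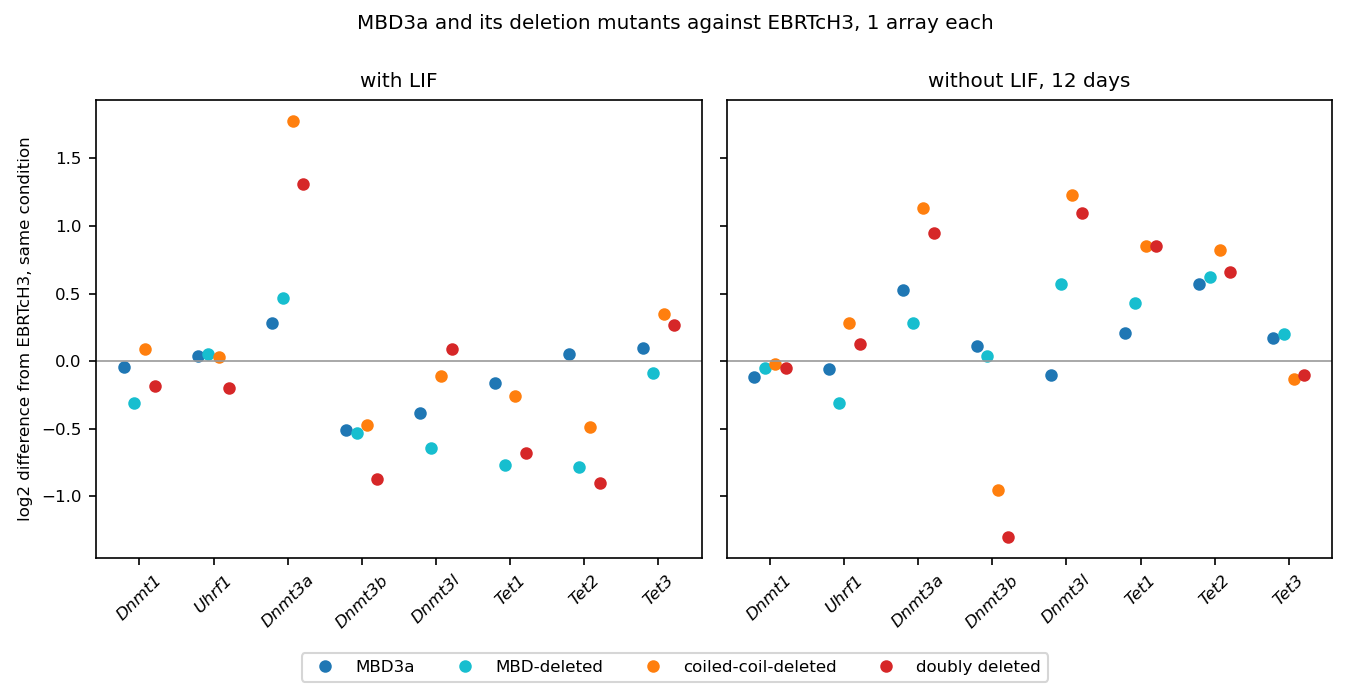
Log2 difference from EBRTcH3 in the same condition (vertical axis) of the 8 genes (horizontal axis) in MBD3a and its 3 deletion constructs, 1 array each and so with no error bar. The 2 constructs without a coiled coil lie above the other 2 for Dnmt3a in both panels and below them for Dnmt3b without LIF.

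MBD3b and MBD3c differed little from MBD3a in these genes. With 1 array per line there is no test, and all 8 members lay between -0.27 and 0.28 log2 of MBD3a in either condition. Against EBRTcH3, the 3 isoform lines were lower for Dnmt3b with LIF, by -0.51 in MBD3a, -0.44 in MBD3b and -0.63 in MBD3c. Without LIF the 3 isoform lines were higher for Dnmt3a, by 0.44 to 0.62. The empty vector line differed from EBRTcH3 by -0.83 (Dnmt3b) to 1.02 (Dnmt3a) with LIF, and by -1.32 (Dnmt3b) to 1.30 (Dnmt3l) without. Coiled-coil-deleted and doubly deleted lay close to the empty vector line without LIF, between -0.22 and 0.37 for every member, and with LIF between -0.69 (Tet1 in doubly deleted) and 0.76 (Dnmt3a in coiled-coil-deleted).

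Genes whose signal followed a member most closely over the 16 arrays are given as a description; the arrays share lines and LIF condition. Dnmt3b was tracked by Gm14490 (Pearson r = 0.993), Inava (0.987) and Pim2 (0.983), Tet2 by the naive pluripotency factor gene Klf5 (0.981), Mllt6 (0.972) and Hadha (0.972), and Tet1 by Atxn3 (0.98), the histone methyltransferase gene Kmt2c (0.97) and Golga4 (0.967). Dnmt3l was tracked by Usp48 (0.971), Zfp459 (0.97) and Gm21411 (0.969), and Dnmt3a by Plk5 (0.964), Mtmr7 (0.957) and Dut (0.956), which encodes dUTPase. For the 3 other members the highest values were lower: Uhrf1 with Gm5648 (0.937), Dnmt1 with Ccdc15 (0.903) and Tet3 with Rtn4 (0.85).

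Other genes of the pathway changed in both directions when LIF was withdrawn from the retaining lines, where 35.8% of genes passed. Of 12 maintenance partners 2 rose and 3 fell (median 0.03, against 0.04 over all genes). Those that rose were Dppa3 (1.57 ± 0.20, adjusted p = 0.00013), whose product displaces UHRF1 from chromatin, and Cdca7l (1.41 ± 0.10, adjusted p = 2e-06). Pcna, the sliding clamp that tethers DNMT1, was at 0.06 (adjusted p = 0.566). Of 21 de novo partners and regulators 3 rose and 7 fell (median -0.13); Hells, the LSH helicase gene, is in this list and in the maintenance list. Prdm14, which represses the Dnmt3 genes in ESCs, fell by 1.53 ± 0.13 (adjusted p = 4.94e-06) and Zfp57, which maintains methylation at imprints, by 1.28 ± 0.09 (adjusted p = 2.49e-06). Of 20 genes of oxidised-base removal and demethylation 3 rose and 7 fell (median -0.04), with Gadd45g (1.64) and Gadd45b (1.58) up and Gadd45a (-1.22) down. Slc23a1, an ascorbate transporter gene listed because ascorbate is a TET cofactor, rose by 1.33 ± 0.23 (adjusted p = 0.000982). Of 7 methyl-CpG readers only Mbd2 passed (0.26, adjusted p = 0.0262). Of 24 methyl-donor and one-carbon genes 6 rose and 8 fell, from Aldh1l2 (-2.83) to Ahcy (1.11), which clears S-adenosylhomocysteine. Of 24 S phase genes 6 rose and 6 fell, Tk1 at 1.10 and Pola1 at -1.32 among them.

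A list of germline genes, many known as targets of promoter methylation, had calls in both directions. Not all were low in these cells: in the retaining lines with LIF, Sycp3 read 8.99 to 9.77 and Zfp42, which is also an ESC marker, 12.10 to 12.39. In the retaining lines 3 of 21 rose and 4 fell without LIF, beside 21.3% of genes higher and 14.5% lower (median 0.04, as over all genes). Mael rose by 1.49, and Sycp3, Hormad1 and Zfp42 fell by 1.83, 1.52 and 1.27. In the lacking lines, where 2.93% of genes passed, Rhox5 alone of the 21 passed (1.80 ± 0.27, adjusted p = 0.00679). Between the classes without LIF 6 were higher, Zfp42 (0.78) among them, and 2 lower in the lacking lines, beside 8.55% and 12.4% of genes. These included the germ cell RNA-binding protein gene Dazl (1.01 ± 0.12, adjusted p = 0.000302) and the meiotic chromosome gene Hormad1 (1.22 ± 0.17, adjusted p = 0.000908).

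Between the classes without LIF, 11 of 21 de novo partners and regulators were higher in the lacking lines and 1 was lower (median 0.25, against 0.01 over all genes), beside 8.55% of genes higher and 12.4% lower. Zfp57 was 0.92 ± 0.09 higher (adjusted p = 9.47e-05), Prdm14 0.70 ± 0.14 (adjusted p = 0.00502) and the piRNA pathway gene Piwil4 0.73 ± 0.11 (adjusted p = 0.000956). Nsd2, a histone H3 lysine 36 methyltransferase gene, was the lower one (-0.72 ± 0.13, adjusted p = 0.0032). Of the 12 maintenance partners 4 were higher and 2 lower, read against the same shares, and the largest difference was that of Dppa3 (-2.08 ± 0.15, adjusted p = 1.66e-05), at 6.10 to 6.69 in the retaining and 4.25 to 4.37 in the lacking lines. With LIF 3 of 21 de novo and 2 of 12 maintenance genes were higher and none lower, beside 7.65% of genes higher and 6.48% lower. The responses of Prdm14 and Zfp57 to LIF withdrawal differed between the classes by 1.11 ± 0.20 (adjusted p = 0.00586) and 0.88 ± 0.15 (adjusted p = 0.00463), that is, their fall was smaller in the lacking lines.

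In the lacking lines few genes of these lists passed on LIF withdrawal, beside 2.93% of genes. None of the 12 maintenance, 21 de novo or 7 reader genes passed, and 1 rose and 1 fell of the 20 demethylation genes, the risen one being Slc23a1 (1.92 ± 0.30, adjusted p = 0.00868). Of the one-carbon and of the S phase genes 2 each fell and none rose. The difference of the responses passed for 2 maintenance genes (both lower), 3 de novo genes (higher), 5 demethylation genes (3 higher, 2 lower), 3 one-carbon genes (1 higher, 2 lower), 7 germline genes (5 higher, the ESC marker Zfp42 among them, and 2 lower) and 3 S phase genes (2 higher, 1 lower), beside 12.1% of genes. Dppa3 and Cdca7l were the maintenance genes, at -1.28 ± 0.33 (adjusted p = 0.0304) and -1.18 ± 0.17 (adjusted p = 0.00134). Between the classes without LIF 6 demethylation genes were higher and 3 lower in the lacking lines, Gadd45b (-1.15 ± 0.21, adjusted p = 0.00397) and Gadd45g (-1.06 ± 0.21, adjusted p = 0.00552) among the latter, beside 8.55% and 12.4% of genes.

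Markers of cell type moved with the same comparisons. The summed signal of the 10 ESC markers without LIF was 14.39 to 14.86 in the retaining and 14.82 to 14.95 in the lacking lines. That of 7 trophoblast markers was 10.10 to 10.65 in the retaining and 10.62 to 11.11 in the lacking lines with LIF, and 12.31 to 13.51 and 11.25 to 11.59 without; the keratin gene Krt18, the trophoblast marker with the largest change, read 11.15 to 12.36 and 8.89 to 9.69 without LIF. The 7 did not move as a block: on LIF withdrawal 5 rose and 1 fell in the retaining lines. Between the classes 4 were higher and 0 lower in lacking lines with LIF, and 1 was higher and 3 lower without. Nor did the 7 primitive and extraembryonic endoderm markers, of which 3 rose and 2 fell on LIF withdrawal in the retaining lines. Between the classes without LIF 1 of these was higher and 1 lower in the lacking lines. Without LIF each retaining line exceeded every lacking line in Dnmt3b, in summed trophoblast signal and in summed primitive and extraembryonic endoderm signal, though both sums hold genes that went the other way. Dnmt3a, Dnmt3l, Tet1, Tet2 and Uhrf1 separated the classes in the other direction, and Tet3 in the same one. Fibroblast feeder markers (6 of 8 above the filter, Lum and Postn below it) were 8.59 to 8.82 in the retaining and 9.34 to 9.64 in the lacking lines with LIF, and 9.08 to 9.84 and 9.15 to 9.28 without. Thy1 (7.03 to 7.45 against 8.51 to 8.80) and Pdgfrb were the 2 of these 6 that passed between the classes with LIF, and without LIF 1 was higher and 4 were lower in the lacking lines. Primitive and extraembryonic endoderm markers (7 of 9, Afp below the filter) were 8.83 to 9.11 and 8.81 to 9.03 with LIF, and 9.18 to 9.96 and 8.91 to 9.06 without. Mesoderm markers (5 of 6) were 7.95 to 8.12 and 8.17 to 8.27 with LIF, and 8.31 to 9.64 and 8.17 to 8.39 without. Neuroectoderm markers (5 of 6) were 10.36 to 10.42 and 10.10 to 10.34 with LIF, and 9.78 to 10.40 and 10.05 to 10.15 without. Germ cell markers (5 of 5) were 8.94 to 9.44 and 9.06 to 9.17 with LIF, and 8.96 to 9.81 and 9.26 to 9.38 without. Their part in the results on the 8 genes was not tested.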

How the data were processed

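Total RNA of 8 ESC lines in 2 conditions was hybridised to arrays after whole-transcript labelling. The authors used RMA and affy, per the submitters' processing notes, and deposited log2 signals. Software versions and how probe sets were defined are not stated in the labels used here. RMA normalizes arrays to a common distribution, so a shift of all genes would not show.

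Probe sets with a single gene symbol were used (30439 of 65770; 27 had no value), the one with the highest mean signal per gene. Symbols were updated and coordinates taken from RefSeq GRCm38.p6. Tested were genes whose signal exceeded an array's 40th percentile on 3 or more arrays (22872 of 30102). Across all of them limma 3.58.1 in R 4.3.3 was fitted, with Benjamini-Hochberg adjustment over all genes of a comparison and a threshold of 0.05. The 2 arrays of a line come from the same cell line per the labels, so the LIF fits held line as a block. Deviations of a line's 2 arrays from their group means correlated at -0.05 to 0.28. Class comparisons used the 8 arrays of a condition, and deletion comparisons an additive fit of the 4 MBD3a constructs. The fits were tested on simulated data. Exact permutation tests enumerated all assignments in Python 3.11.15 with numpy 2.4.6.

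The rule for named genes takes all 8 members and Mbd3, up to 4 genes with the largest change per list and comparison (of which a part is named; Pcna is named outside it), and the 3 genes most correlated with each member. Members and lists were chosen with earlier results of these data known. The list entry Lsh was read as Hells, its RefSeq synonym also naming an unrelated gene. Markers and list genes without a single-symbol probe set were not used here. Alternatives changed the filter, probe set rule, scaling, variance model, array weights, block, title run and lines; analysis of the second title run alone and the within-array differences of gene pairs were added after the data were seen.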

Additional observations from a re-analysis of the deposited data

Results flagged for a closer look

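Among the 5 retaining lines each member was screened for a line far from the others with LIF, without LIF and in its response, 24 groups in all, of which chance marks about 1 in 20. Of the 6 values that stood apart 5 belong to MBD-deleted. With LIF it was low for Dnmt1 (10.22, the others 10.48 to 10.58) and for Tet1 (10.86, the others 11.47 to 11.71). Without LIF it was low for Uhrf1 (10.15, the others 10.40 to 10.46). Its response to LIF withdrawal was 0.22 for Dnmt1, where the others were -0.14 to -0.04, and 0.48 for Tet3, where the others were 0.19 to 0.26. The sixth was EBRTcH3, the line without a knockout or vector, whose Dnmt3b response of 1.53 lay below the 2.10 to 2.23 of the others.

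Lacking and retaining lines responded differently to LIF withdrawal, in a limma test of that difference, for Dnmt3b (lacking minus retaining -0.97, adjusted p = 0.00388) and Tet3 (-0.49, adjusted p = 0.0232). The Tet3 call was lost with each array centred on its median (adjusted p = 0.0832), under quantile normalization (0.0863) and on leaving out MBD3a (0.0525), coiled-coil-deleted (0.103) or doubly deleted (0.061). For Tet3 every retaining line was higher and every lacking line lower without LIF, whereas Dnmt3b was higher without LIF in 8 of 8 lines.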

How the results depend on the processing

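Of 1168 values of single members under an alternative, 1060 kept their side of the threshold and direction, 53 lost a call, 33 gained it and 22 changed sign; none of the 22 was a call. Beside the title runs alone, Dnmt3b kept its call in 17 of 17 alternatives in each LIF and class comparison where it passed, Dnmt3a likewise in both LIF comparisons it passed and between classes, Uhrf1 without LIF in 9 of 17 and the Tet3 response difference in 12 of 17.

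Counts of members passing moved as follows. For the response difference (2 as reported, beside 2759 of 22872 genes) there were 4 with a 60th percentile filter (2905 of 18186 genes) and 4 with a mean-variance trend (2963 of 22872). There were 6 with array weights (5414 of 22872) and 4 with no replicate block (2913 of 22872). For lacking minus retaining with LIF (1, beside 3233 genes) there were 3 with array weights (5373) and 2 with line as a random replicate block (4471). For the lacking lines' response (2, beside 670 genes) there were 4 with title run in the model (1145). For coiled-coil deletion without LIF (3, beside 2077 genes) there was 1 with no filter (1554 of 30102). The numbers over all genes moved too, so these counts are not read as results about the members. Fits of the first title run by class rest on 1 lacking line, and their counts are not given. The second title run alone, with 3 lines, gave 1 for all lines (5) and 0 for the retaining (6) and lacking responses, their difference and the class in each condition; fewer lines enter these fits. Leaving out each line gave 1 to 5 for the response difference, beside 1353 to 3914 genes. It gave 1 to 2 for the lacking lines' response (114 to 1039 genes) and 1 to 2 between classes with LIF (1779 to 3866 genes). Leaving out a construct of the deletion fits leaves no residual degrees of freedom, so this was not run. With no replicate block Dnmt3l lost its call over all lines (-0.55, adjusted p = 0.0689), and the response difference passed for Dnmt3l (0.79, 0.0191) and Tet2 (0.81, 0.0433). With line as a random replicate block Tet3 passed between classes with LIF (0.26, 0.0247) and without (-0.24, 0.0401). No other call changed with the block.

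Sign changes were as follows. Over all lines: Tet3 -0.01 under quantile normalization, Uhrf1 -0.09 to 0.01 on leaving out each line, Dnmt1 0.05 in the second run. Responses: Dnmt3l in lacking lines 0.01 with array weights and -0.12 to 0.04 on leaving out lines; Dnmt1 in retaining lines 0.03 with title run in the model and 0.22 in the second run; the Dnmt3l response difference -0.03 in the second run. Between classes with LIF: Uhrf1 0.03 with array weights, 0.01 with title run in the model, 0.14 in the first run and -0.07 to 0.08 on leaving out lines; Tet1 0.15 with title run in the model, 0.03 in the first run, 0.30 in the second and -0.30 to 0.05 on leaving out lines; Tet2 0.08 in the second. Without LIF: Dnmt1 -0.02 in the first run and -0.01 to 0.02 on leaving out lines. The cause was not tested. Having 1 array per line limits every value.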

Other observations

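Lines also differed in single genes of the one-carbon and demethylation lists. Cbs, which draws homocysteine away from the methyl cycle, was higher in the lacking lines with LIF (1.05 ± 0.11 log2, limma SE, adjusted p = 0.000147) and without it (1.05 ± 0.08, adjusted p = 2.27e-05). Phgdh, the first enzyme of serine synthesis, was 1.13 lower without LIF (-1.13 ± 0.09, adjusted p = 2.98e-05), at 9.37 to 9.67 in the lacking and 10.52 to 10.73 in the retaining lines. Apobec1, a cytidine deaminase gene, was lower in the lacking lines in both conditions (-1.68 ± 0.17 with LIF, adjusted p = 0.000152; -0.67 ± 0.16 without, adjusted p = 0.0139). Over the list of methyl-donor and one-carbon genes 5 of 24 were higher and 5 lower in the lacking lines with LIF, and 4 and 5 without, beside 14.1% and 20.9% of genes that passed.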
